A study of Homo sapiens with 4 samples.

Results

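Splicing factors and spliceosome proteins were examined in the human myeloma line OPM2, which was established from malignant plasma cells, after exposure to VS-5584 (SB2343), a small-molecule inhibitor of PI3 kinases and mTOR. The genes were picked by symbol, and the choice was made with earlier results of these data known. They were SR proteins (SRSF), hnRNP proteins (HNRNP), Sm and other U snRNP proteins (SNRP), LSM1 to LSM8, SF3A and SF3B subunits, PRPF proteins, U2AF1, U2AF2 and the kinases SRPK1, SRPK2 and CLK1 to CLK4. They came to 78 genes of the 18377 that had a probe set assigned to exactly 1 gene; 2 pseudogenes were left out, and each gene was represented by its brightest probe set. The protein-coding genes HNRNPC, HNRNPA3, HNRNPH2, HNRNPUL2 and SNRPN fitted the symbols but had only probe sets shared with other genes and were not used here. Of the 78 genes, 75 passed the filter on dim genes (mean intensity above 48.9) and were tested, while SRSF12, HNRNPCL1 and HNRNPCL2 lay below it.

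The comparison has 2 groups of 2 arrays: OPM2 cells treated with VS-5584 for 24 h, and OPM2 cells given the solvent DMSO for 24 h. The dose is 123 nM in the sample labels and 125 nM in the series' design text. Every culture was of this 1 line, and although the titles speak of biological replicates, nothing says how one culture was kept apart from another, so p-values measure only the spread between these samples, which may be technical. The arrays measured RNA of whole cultures, so fewer cells with an RNA and less of that RNA per cell cannot be told apart.

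Splicing removes introns from newly made RNA. The U1 particle pairs with the start of an intron, the U2 particle with its branch site near the end, and the U4/U6 and U5 particles then join to build the catalytic machine. Sm proteins form a ring around most of these small RNAs, LSM proteins form the ring of U6, and SR and hnRNP proteins bind exons and introns and bias which sites are used. SRPK and CLK kinases phosphorylate SR proteins. In other human cells, S6 kinase, which mTOR activates, is known to act on SRPK2, and AKT is known to act on SRPK1. This makes these genes of interest under a PI3 kinase and mTOR inhibitor, although the arrays measured RNA and not kinase activity.

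The arrays themselves came with 2 limits. VS-5584 replicate 2 stood apart: its log2 values spanned 1.74 between the quartiles, against 1.94 on VS-5584 replicate 1 and 1.93 to 1.95 on the DMSO arrays, and its correlation with the other arrays was 0.980 to 0.985, against 0.993 to 0.996 among those. Between replicates, the SD of the log2 difference over the genes tested was 0.249 for VS-5584 and 0.167 for DMSO. Of 10 plasma cell markers, 9 were above the filter, SDC1, IRF4, PRDM1, XBP1 and TNFRSF17 among them. Of 16 markers of T, myeloid, stromal, epithelial, endothelial and red cells, 6 were above it (COL1A1, COL1A2, KRT18, KRT19, PECAM1 and HBB), while CD3E, CD14 and EPCAM were below. The summed intensity of those 16 markers was 859 and 904 on the VS-5584 arrays, against 839 and 853 on the DMSO arrays, and its part in the results was not tested.

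Splicing genes were lower after VS-5584 by small amounts, and none passed the test. On average over the replicates 66 of 75 were lower (62.7% of all 11026 genes tested were lower), and the middle member differed by -0.18 on the log2 scale (1.13-fold), against a median of -0.064 over all genes tested. For 45 of 75 both VS-5584 arrays lay below both DMSO arrays, where 29.2% of all genes did, and for 1 gene, HNRNPA1L2, both lay above, where 14.7% of all genes did. With limma, 0 of the 75 had an adjusted p under 0.05 (0% of all genes did), and the smallest adjusted p was 0.371, for SNRPA. At an unadjusted p under 0.05, 16 were lower and 0 higher, beside 8.93% and 1.49% of all genes. An ordinary 2-sample test without shared variance also called 0 members after adjustment and found 4 lower at an unadjusted p under 0.05, beside 2.22% of all genes.

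Both treated arrays showed lower values, to unequal degrees. The members' median was -0.095 on VS-5584 replicate 1 and -0.27 on VS-5584 replicate 2, each relative to the DMSO mean, where the median of all genes tested was -0.0022 and -0.14. With VS-5584 replicate 2 left out, 60 of 75 members were still lower (50.6% of all genes), 50 lay below both DMSO arrays (34.6% of all genes) and 7 above both (33.3%). The 2 arrays share the DMSO controls, so their likeness is no independent check. With VS-5584 replicate 1 left out, 24 members had an adjusted p under 0.05 (limma), beside 23.9% of all genes, and 23 of them were lower. After cyclic loess normalization the members' median was -0.091, and that of all genes -0.010. In that setting 51 of 75 members were lower (52.5% of all genes), 32 lay below both DMSO arrays (24.4%) and 7 above both (20.4%).

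**Figure D1:**
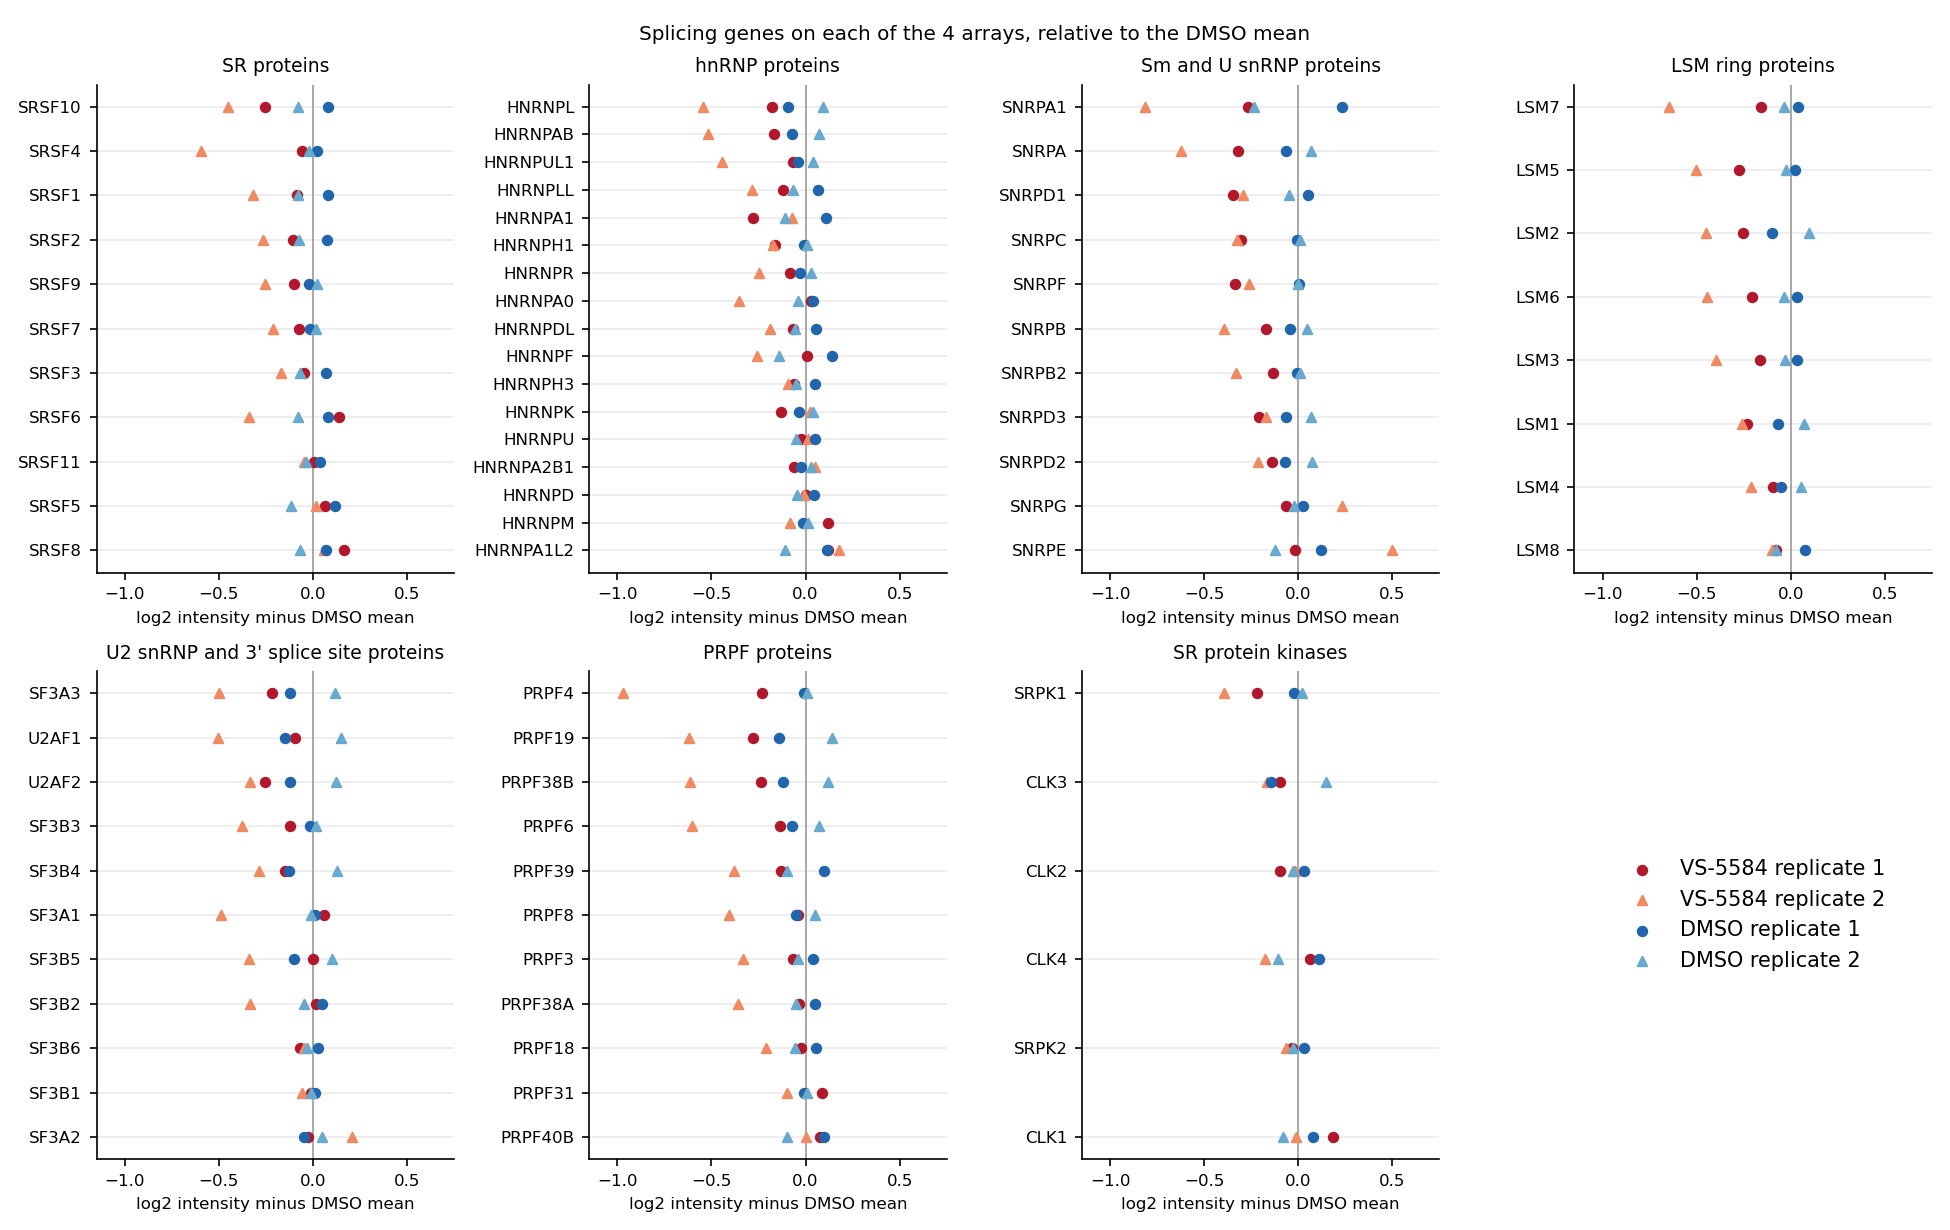
Log2 intensity of each of the 75 tested splicing genes on each array, minus the mean of the 2 DMSO arrays (x axis), with genes of 1 role per panel; red and orange mark the VS-5584 arrays, and both blues the DMSO arrays. All 8 LSM genes have both VS-5584 values left of both DMSO values as deposited, and after cyclic loess LSM8 turns to 0.045; VS-5584 replicate 2 (orange triangles) lies furthest left for most genes.

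How bright a probe set was moved with these differences. When all genes tested were put into 4 equal bins by mean log2 intensity, 51 of the 75 splicing genes fell in the brightest bin, including all 11 SR genes and 15 of 17 hnRNP genes. In that bin the members' median log2 difference was -0.17, against -0.13 for all its genes, and on VS-5584 replicate 2 alone the medians were -0.25 and -0.23. In the next bin down, the 16 members had a median of -0.32, against -0.16 for all its genes. For the 7 members in the bin below, the median was -0.22, against -0.040 for all its genes. By median, the bright members were thus close to other bright genes, and the members of the middle bins were further from their neighbours. In the brightest bin 45 of the 51 members were lower on average, beside 76.6% of all its genes. In the next bin 14 of 16 were lower, beside 79.0%, and in the bin below 6 of 7, beside 58.2%. The part of brightness in the differences was not tested.

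**Figure D2:**
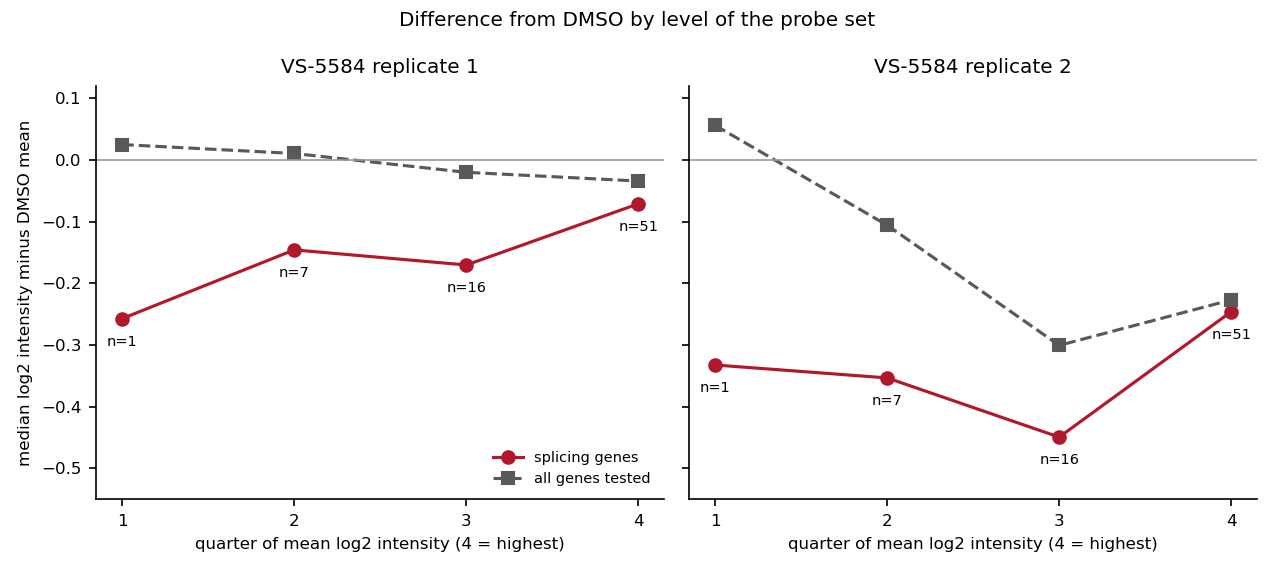
Median log2 intensity minus the DMSO mean (y axis) of splicing genes (red) and of all genes tested (grey) in 4 equal bins of mean log2 intensity (x axis), for VS-5584 replicate 1 (left) and VS-5584 replicate 2 (right); n is the number of splicing genes. In the brightest bin, with 51 splicing genes, the medians on VS-5584 replicate 2 are -0.25 and -0.23.

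The LSM and SNRP genes had the lowest medians of the role groups. The median log2 difference was -0.30 for the 8 LSM genes, -0.28 for the 11 SNRP genes, -0.22 for the 11 PRPF genes, -0.21 for the 11 genes of the U2 particle and 3' splice site, -0.15 for the 11 SR genes, -0.13 for the 17 hnRNP genes and -0.057 for the 6 kinases. Without VS-5584 replicate 2 they were -0.18 for LSM, -0.21 for SNRP, -0.067 for PRPF, -0.071 for U2 and 3' splice site, -0.059 for SR, -0.065 for hnRNP genes and -0.066 for the kinases, against -0.0022 for all genes, so that the place of the kinases at the other end of the order rested on that array. The differences between groups were not tested. After cyclic loess the medians were -0.18 for LSM, -0.16 for SNRP, -0.13 for PRPF, -0.079 for U2 and 3' splice site, -0.071 for SR and -0.046 for hnRNP genes, and that of the kinases turned to 0.059.

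**Figure D3:**
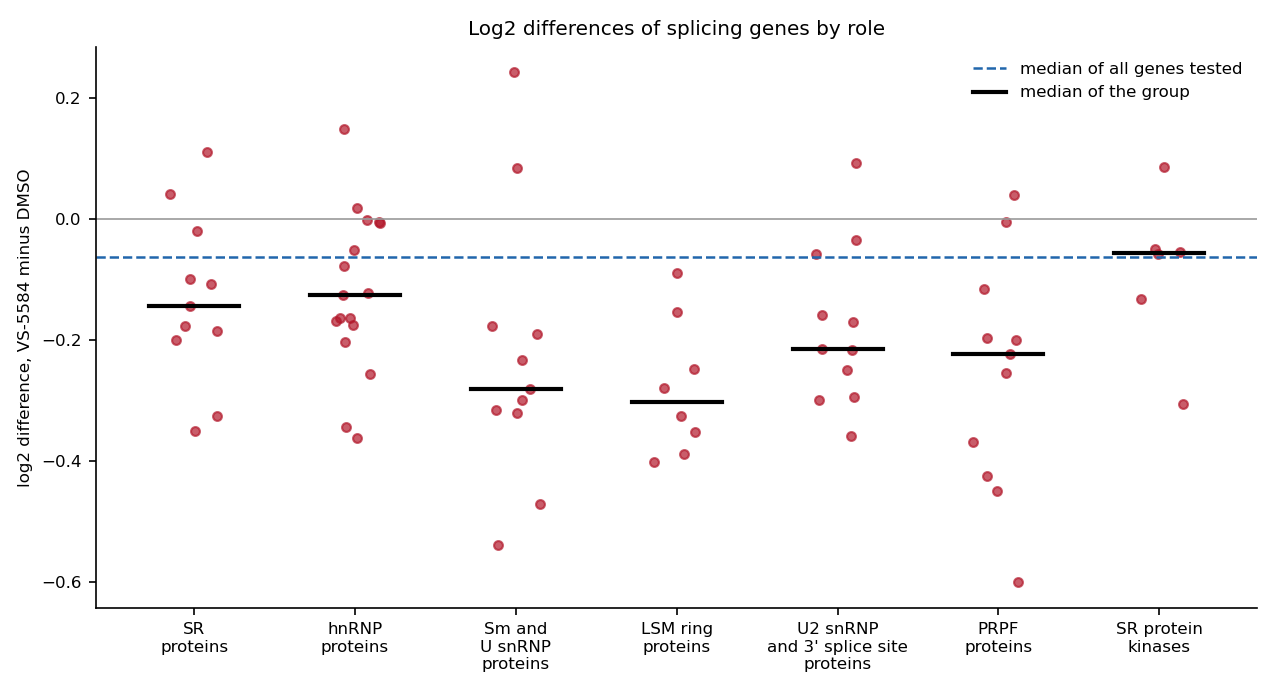
Log2 difference, VS-5584 minus DMSO (y axis), of each tested splicing gene (points) by role (x axis), with the group's median (black bar) and the median of all genes tested (dashed line, -0.064). The LSM median is -0.30 (-0.18 without VS-5584 replicate 2, when the SNRP median is lower at -0.21), and the kinase median is -0.057 (-0.066 without VS-5584 replicate 2, and 0.059 after cyclic loess).

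Promoter sequence was read for the members as a description. RefSeq (GRCh38.p14) gave a promoter of 300 bases, from 250 before the start to 50 after it, for 70 of the 78 genes; the first listed start was used for the 18 genes with several. SNRPD1, LSM6, LSM1, SRSF2, HNRNPA1, SF3B3, PRPF3 and PRPF39 had no entry. A CCAAT box, searched as CCAAT on both strands, was in 28 of 70 (40%), beside 37.1% of the promoters of all genes tested and 35.7% of all promoters. The core that ETS factors bind, CCGGAA on both strands, was in 29 of 70 (41.4%), beside 30.1% of genes tested and 17.6% of all promoters. The E-box CACGTG, which MYC and its relatives bind, was in 8 of 70 (11.4%), beside 10.3% of genes tested and 7.43% of all. A promoter was counted once per motif, and none of the 3 strings contains another.

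Of the 16 members with an unadjusted p under 0.05, 14 had a promoter: 7 held CCAAT, 6 the ETS core and 0 the E-box. The 120 bases before the start are shown for the 4 genes that had the smallest unadjusted p of their role group and held one of these motifs in that stretch; capitals mark the motif, which starts 80 bases before the start in HNRNPL, 83 in SNRPA and 79 in LSM5 (CCAAT or its complement ATTGG) and 67 in SF3A3 (TTCCGG, the complement of the ETS core). The 4 stretches lie at chr19:38852348-38852467 on the minus strand, chr19:40751083-40751202 on the plus strand, chr7:32490381-32490500 on the minus strand and chr1:37990023-37990142 on the minus strand, in that order.
HNRNPL: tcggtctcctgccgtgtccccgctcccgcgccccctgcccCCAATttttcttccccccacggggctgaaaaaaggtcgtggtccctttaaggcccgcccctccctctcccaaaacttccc
SNRPA: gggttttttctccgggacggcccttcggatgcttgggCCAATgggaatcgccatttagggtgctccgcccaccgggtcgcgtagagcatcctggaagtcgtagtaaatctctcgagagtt
LSM5: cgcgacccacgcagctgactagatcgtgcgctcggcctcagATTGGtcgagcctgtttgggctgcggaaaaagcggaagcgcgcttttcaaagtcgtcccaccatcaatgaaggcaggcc
SF3A3: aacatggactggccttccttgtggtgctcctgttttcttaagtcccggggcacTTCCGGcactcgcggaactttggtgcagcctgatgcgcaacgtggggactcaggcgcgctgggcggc
A match is a string of letters in the window and was not checked for binding. In SRSF10, PRPF4 and SRPK1, which had the smallest p of the other role groups, the same 120 bases held none of the 3 motifs.

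The U1 and U2 particle proteins showed 2 of the larger differences. SNRPA, which binds a stem loop of U1 RNA, had log2 intensities of 7.004 and 6.70 on the VS-5584 arrays, against 7.26 and 7.39 on the DMSO arrays. The difference was -0.47 ± 0.15 (SE of limma, n = 2 each, unadjusted p = 0.011, adjusted p = 0.371), 1.39-fold lower, and the groups did not overlap. SNRPA1, a protein of the U2 particle, had 6.13 and 5.58 in VS-5584 cells, against 6.63 and 6.16 in DMSO cells. Its groups nearly touched, the 2 DMSO arrays being apart from each other, and the difference was -0.54 ± 0.21 (adjusted p = 0.437). It was -0.26 on VS-5584 replicate 1 and -0.81 on VS-5584 replicate 2, where SNRPA1 read below 5.61, the lowest mean among genes tested. SNRPC, which helps U1 hold the 5' splice site, gave tighter values than SNRPA and SNRPA1. They were 7.53 and 7.51 in VS-5584 cells against 7.83 and 7.85 in DMSO cells, a difference of -0.32 ± 0.13 (adjusted p = 0.452). It was -0.31 and -0.33 on the 2 VS-5584 arrays, so that this difference was as large without VS-5584 replicate 2.

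The Sm ring, which every spliceosomal particle but U6 carries, consists of SNRPB, SNRPD1, SNRPD2, SNRPD3, SNRPE, SNRPF and SNRPG. SNRPD1 stood at 9.40 and 9.45 in VS-5584 cells, against 9.80 and 9.69 in DMSO cells, a difference of -0.32 ± 0.13 (adjusted p = 0.452). SNRPF, SNRPB, SNRPD3 and SNRPD2 differed by -0.30, -0.28, -0.19 and -0.18. Together with SNRPD1 these 5 lay below both DMSO arrays on both VS-5584 arrays. SNRPB2, a U2 protein, differed by -0.23 and is not a ring subunit.

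SNRPE and SNRPG were the 2 exceptions in the ring, and their probe sets disagreed. The brighter SNRPE probe set, used by the rule, read 10.36 and 10.88 in VS-5584 cells against 10.50 and 10.26 in DMSO cells, a difference of 0.24 ± 0.18 (adjusted p = 0.654) carried by VS-5584 replicate 2. The dimmer SNRPE probe set read 7.44 and 7.20 in VS-5584 cells, against 7.65 and 7.48 in DMSO cells, a difference of -0.24 with no overlap. The brighter SNRPG probe set read 10.29 and 10.60 in VS-5584 cells against 10.38 and 10.34 in DMSO cells (0.083 ± 0.15, adjusted p = 0.852). The dimmer one read 6.43 and 6.21 in VS-5584 cells, against 6.49 and 6.62 in DMSO cells, a difference of -0.24. On their dimmer probe sets both genes thus lay on the side of the other 5 ring subunits. Both genes have processed pseudogenes in the human genome. By probe set number, the brighter SNRPE set falls among members on chromosome 9, while SNRPE lies on chromosome 1. The brighter SNRPG set falls among members on chromosome 19, while SNRPG lies on chromosome 2. The dimmer sets fall among members on the genes' own chromosomes. The part of signal from pseudogene copies was not tested.

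**Figure D4:**
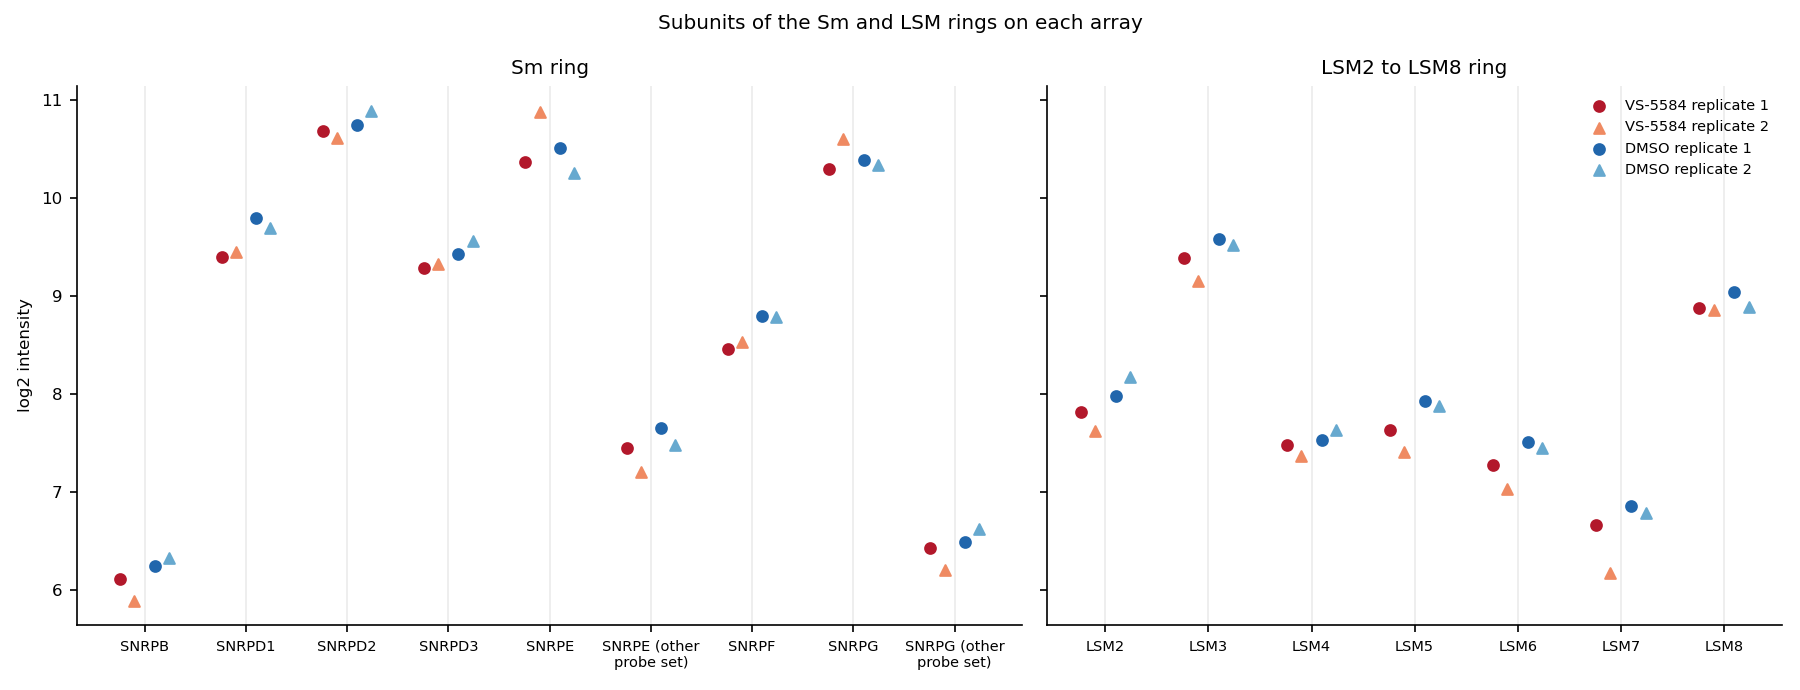
Log2 intensity (y axis) of the subunits of the Sm ring (left) and of the LSM2 to LSM8 ring of U6 (right) on the 2 VS-5584 arrays (red, orange) and the 2 DMSO arrays (blues); SNRPE and SNRPG are shown for both of their probe sets. Except on the brighter probe sets of SNRPE and SNRPG, both VS-5584 values lie below both DMSO values of the same probe set as deposited (after cyclic loess LSM8 turns to 0.045); heights of different genes are not comparable.

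The LSM genes were all lower on average. For all 8 both VS-5584 arrays lay below both DMSO arrays, beside 29.2% of all genes tested. LSM2 to LSM8 make the nuclear ring that binds the end of U6 RNA, while LSM1 replaces LSM8 in the cytoplasmic ring that works in mRNA decay. LSM5 stood at 7.63 and 7.40 in VS-5584 cells, against 7.93 and 7.88 in DMSO cells, a difference of -0.39 ± 0.14 (unadjusted p = 0.020, adjusted p = 0.417). LSM7 stood at 6.66 and 6.17, against 6.86 and 6.78 in DMSO cells (-0.40 ± 0.17), with most of the difference on VS-5584 replicate 2. LSM2 stood at 7.82 and 7.62 in VS-5584 cells, against 7.97 and 8.17 in DMSO cells (-0.35 ± 0.14), and its other 2 probe sets held identical values. These 3 and LSM6 had an unadjusted p under 0.05.

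LSM6 stood at 7.27 and 7.03 in VS-5584 cells, against 7.51 and 7.44 in DMSO cells (-0.33 ± 0.14). LSM3 stood at 9.39 and 9.15 in VS-5584 cells, against 9.58 and 9.52 in DMSO cells (-0.28 ± 0.14). LSM1, the subunit of the decay ring, stood at 8.47 and 8.44 in VS-5584 cells, against 8.64 and 8.77 in DMSO cells (-0.25 ± 0.13). That lay within the range of LSM2 to LSM7, which both rings share. LSM4 stood at 7.48 and 7.37 in VS-5584 cells, against 7.53 and 7.63 in DMSO cells (-0.15 ± 0.13). LSM8, the subunit found only in the nuclear ring, showed the smallest difference, with 8.880 and 8.857 in VS-5584 cells against 9.036 and 8.881 in DMSO cells (-0.090 ± 0.13, adjusted p = 0.821), so that its groups all but touched. The sign of LSM8 turned after cyclic loess (0.045), and that of the other 7 did not.

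At the branch site and 3' splice site, 10 of 11 genes were lower on average, beside 62.7% of all genes, and 6 lay below both DMSO arrays, beside 29.2%. SF3A3, a subunit of the SF3a complex that anchors U2, stood at 8.996 and 8.71 in VS-5584 cells, against 9.09 and 9.33 in DMSO cells (-0.36 ± 0.15, unadjusted p = 0.0435, adjusted p = 0.469). U2AF2, which reads the polypyrimidine tract, stood at 5.88 and 5.81 in VS-5584 cells, against 6.02 and 6.26 in DMSO cells (-0.29 ± 0.14). Its partner U2AF1, which reads the AG at the intron's end, overlapped between groups, with 9.44 and 9.03 in VS-5584 cells against 9.38 and 9.68 in DMSO cells (-0.30 ± 0.17). Thus both subunits of U2AF gave about the same average, 1 without overlap and 1 with it, though U2AF2 lay in the dimmest of the 4 bins. SF3B3, a scaffold of SF3b, stood at 10.40 and 10.15, against 10.51 and 10.54 in DMSO cells (-0.25 ± 0.14). SF3A2 was the 1 gene of the group that was higher on average, with 7.12 and 7.35 in VS-5584 cells against 7.09 and 7.19 in DMSO cells (0.091 ± 0.14), and it was at -0.024 on VS-5584 replicate 1. The other 6, SF3A1, SF3B1, SF3B2, SF3B4, SF3B5 and SF3B6, differed by -0.22 to -0.035.

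The PRPF proteins held the largest single difference. PRPF4, a scaffold of the U4/U6 particle, stood at 8.08 and 7.34 in VS-5584 cells, against 8.30 and 8.32 in DMSO cells. The difference was -0.60 ± 0.21 (unadjusted p = 0.0195, adjusted p = 0.416), 1.52-fold lower, made up of -0.23 on VS-5584 replicate 1 and -0.97 on VS-5584 replicate 2. PRPF19, the ubiquitin ligase that names the PRP19 complex of the catalytic spliceosome, stood at 7.97 and 7.63, against 8.11 and 8.39 in DMSO cells (-0.45 ± 0.16, adjusted p = 0.420). These genes lay below both controls on both arrays, and the first replicate of VS-5584 gave the smaller difference in each.

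PRPF38B stood at 8.05 and 7.67 in VS-5584 cells, against 8.16 and 8.40 in DMSO cells (-0.42 ± 0.16). PRPF6, which bridges U5 to U4/U6 in the tri-snRNP, stood at 7.72 and 7.25 in VS-5584 cells, against 7.78 and 7.93 in DMSO cells (-0.37 ± 0.17). PRPF40B, a U1-associated protein, overlapped between groups, with 6.51 and 6.43 in VS-5584 cells against 6.53 and 6.33 in DMSO cells (0.039 ± 0.14), and its sign turned with median centring (-0.0066). The remaining PRPF3, PRPF8, PRPF18, PRPF31, PRPF38A and PRPF39 differed by -0.25 to -0.0058. PRPF38A, the paralogue of PRPF38B, was among these at -0.20.

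Among SR proteins, which bind exons and recruit U1 and U2AF, the differences were mostly small. SRSF10, a splicing repressor that is dephosphorylated on heat shock, stood at 9.68 and 9.49 in VS-5584 cells, against 10.02 and 9.86 in DMSO cells. It differed by -0.35 ± 0.14 (unadjusted p = 0.0334, adjusted p = 0.447), the 1 SR gene with an unadjusted p under 0.05, and its second probe set differed by -0.28. By probe set number, that second set falls between members on chromosomes 19 and 2, while SRSF10 lies on chromosome 1. The part of signal from other copies was not tested. SRSF4 stood at 9.48 and 8.94, against 9.56 and 9.51 in DMSO cells (-0.33 ± 0.18), with -0.059 on VS-5584 replicate 1 and -0.59 on VS-5584 replicate 2. The 2 genes had averages of like size, but the first VS-5584 replicate of SRSF4 lay just below the lower DMSO array.

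SRSF1, which also acts in translation, stood at 10.81 and 10.58 in VS-5584 cells, against 10.97 and 10.82 in DMSO cells (-0.20 ± 0.14). SRSF2, which binds exonic enhancers, stood at 9.54 and 9.38 in VS-5584 cells, against 9.72 and 9.57 in DMSO cells (-0.19 ± 0.14). For both, VS-5584 replicate 1 came close to the lower DMSO array. SRSF8 and SRSF5 were the SR genes higher on average and overlapped between groups, at 0.11 ± 0.13 and 0.041 ± 0.14; SRSF5 turned to -0.0049 with median centring. The other SRSF3, SRSF6, SRSF7, SRSF9 and SRSF11 differed by -0.18 to -0.020. SRSF12, below the filter, read 5.46 and 5.39 in VS-5584 cells, against 5.42 and 5.54 in DMSO cells, and was not tested.

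The hnRNP genes, which coat introns and often oppose SR proteins, spanned -0.36 to 0.15. HNRNPL, which binds CA-rich RNA, stood at 9.01 and 8.65 in VS-5584 cells, against 9.10 and 9.29 in DMSO cells (-0.36 ± 0.16, unadjusted p = 0.0479, adjusted p = 0.476). HNRNPAB stood at 9.48 and 9.13 in VS-5584 cells, against 9.58 and 9.72 in DMSO cells (-0.34 ± 0.16). HNRNPL's paralogue HNRNPLL, the regulator of CD45 splicing in lymphocytes that also acts in plasma cells, stood at 8.31 and 8.15 in VS-5584 cells, against 8.498 and 8.36 in DMSO cells (-0.20 ± 0.14). All 3 lay below DMSO on both arrays.

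HNRNPUL1 stood at 9.38 and 9.003 in VS-5584 cells, against 9.41 and 9.49 in DMSO cells (-0.26 ± 0.16). HNRNPM overlapped between groups (0.018 ± 0.14) and turned to -0.028 with median centring. HNRNPA1L2, a retrocopy of HNRNPA1, stood at 7.95 and 8.003 in VS-5584 cells, against 7.94 and 7.71 in DMSO cells (0.15 ± 0.14, adjusted p = 0.717), and its signal may be shared with HNRNPA1. HNRNPA1 itself, whose mRNA carries a 5' terminal oligopyrimidine tract, was among the other 11 tested, which differed by -0.18 to -0.0027. HNRNPCL1 and HNRNPCL2, near-identical copies, were below the filter.

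The kinases of SR proteins were close to DMSO apart from SRPK1. SRPK1 stood at 8.44 and 8.27 in VS-5584 cells, against 8.64 and 8.68 in DMSO cells, without overlap (-0.31 ± 0.13, unadjusted p = 0.0484, adjusted p = 0.478). SRPK2 stood at 8.87 and 8.84 in VS-5584 cells, against 8.93 and 8.87 in DMSO cells (-0.051 ± 0.13). The difference between the SRPK paralogues was not tested.

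CLK1, the nuclear kinase that releases SR proteins from speckles, stood at 9.64 and 9.45 in VS-5584 cells, against 9.54 and 9.38 in DMSO cells (0.086 ± 0.14). CLK2 stood at 9.29 and 9.37 in VS-5584 cells, against 9.42 and 9.36 in DMSO cells (-0.059 ± 0.13). CLK3 differed by -0.13 ± 0.15 and CLK4 by -0.056 ± 0.15, and in all 4 CLK genes the groups overlapped. After cyclic loess SRPK2, CLK2 and CLK4 turned to 0.084, 0.062 and 0.056, while SRPK1 did not turn. The second, dimmer CLK4 probe set differed by -0.27, with 6.33 and 5.80 in VS-5584 cells against 6.28 and 6.40 in DMSO cells.

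Splicing genes outside these families were also lower on average. Of 145 listed genes in 7 lists, 129 were tested. Of these 114 were lower on average, beside 62.7% of all genes, and 68 lay below and 7 above both DMSO arrays, beside 29.2% and 14.7%. With limma 0 had an adjusted p under 0.05, and 21 were lower and 0 higher at an unadjusted p under 0.05, beside 8.93% and 1.49% of all genes. Their median was -0.22, with -0.076 on VS-5584 replicate 1 and -0.33 on VS-5584 replicate 2, and -0.091 after cyclic loess. Medians by list were -0.30 for 6 exon junction genes, -0.26 for 16 genes of the SMN complex and snRNP assembly, -0.26 for 4 further LSM genes, -0.22 for 25 U1, tri-snRNP and minor spliceosome genes, -0.22 for 22 genes of the U2-associated list, -0.21 for 22 PRP19-complex and catalytic-step genes and -0.11 for 34 other regulators, which stood at 0.00072 after cyclic loess. The U2-associated list also took in TRA2A, TRA2B, SRRM1, SRRM2, SON, ACIN1, PNN and RNPS1, beside U2 and branch site proteins.

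SNRNP48, a U11/U12 protein of the minor spliceosome, stood at 8.77 and 8.43 in VS-5584 cells, against 9.08 and 9.14 in DMSO cells (-0.51 ± 0.15, adjusted p = 0.357). USP39, needed for tri-snRNP joining, differed by -0.49 ± 0.15. LSM10, which replaces an Sm subunit in the U7 particle of histone mRNA processing, stood at 6.46 and 6.26 in VS-5584 cells, against 6.90 and 6.81 in DMSO cells (-0.50 ± 0.14, unadjusted p = 0.00511, adjusted p = 0.313), and LSM12 differed by -0.41 ± 0.14. These groups did not overlap. By probe set number, the LSM12 set falls beside that of LSM1, which lies on chromosome 8. Whether its signal came from the LSM12 gene itself was not tested.

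ALYREF, an mRNA export adaptor, and MAGOHB, an exon junction core protein, differed by -0.59 ± 0.19 and -0.45 ± 0.16. GEMIN6 and WDR77, which help load Sm rings onto small RNAs, differed by -0.57 ± 0.18 and -0.44 ± 0.16. PTBP1, the pyrimidine-tract repressor, stood at 8.93 and 8.32 in VS-5584 cells, against 9.16 and 9.19 in DMSO cells (-0.55 ± 0.19, adjusted p = 0.401). KHSRP differed by -0.42 ± 0.17, U2SURP and SRRM1 by -0.37 ± 0.15 and -0.35 ± 0.14, and BUD31 and DHX38 by -0.37 ± 0.17 and -0.35 ± 0.16.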

How the data were processed

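RNA of 4 OPM2 cultures was measured on 1-colour arrays, biotin-labelled after whole-transcript amplification per the labels' protocols. For each of 28869 probe sets the authors deposited an intensity on a linear scale from each array. RMA is the method named in the submitters' processing notes, and the sources used here do not say how its values became linear intensities. An added constant would shrink differences of dim genes. Groups came from the sample titles.

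Intensities were turned into log2 values without further normalization. Of the probe sets, 19310 carried 1 gene in the platform annotation, 1752 several and 7807 none listed; 19279 matched RefSeq GRCh38.p14 by gene ID. The 40% of genes with the lowest mean were left out, and 11026 were fitted with limma 3.58.1 (R 4.3.3; two-sided, Benjamini-Hochberg over all of them, threshold 0.05). No p was adjusted over the members alone. Members and lists were chosen with earlier results of these data known. Genes named were all members of role groups of 8 or fewer tested genes, otherwise the 4 with the smallest unadjusted p in each direction, members below the filter, and 2 genes per further list; SNRPB, SNRPB2, SNRPD2, SNRPD3, SNRPF, PRPF38A and HNRNPA1, and the genes whose values are given only as a range, were added after their values were seen. The fit was tested on simulated data. Precision is limited by the number of arrays. The 13 alternatives are in the closing section. Figures used matplotlib 3.10.9.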

Additional observations from a re-analysis of the deposited data

How the results depend on the processing

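The members' median stayed below 0 in the alternatives run, from -0.27 to -0.095 when 1 array at a time was left out. With 16 subtracted before log2, 2 genes of all tested passed and 9 members were lower at an unadjusted p under 0.05 (12%, beside 8.54% of all genes). After cyclic loess 16 genes passed, and 9 members were lower and 1 higher (SRSF8) at an unadjusted p under 0.05 (7.95% and 4.37% of all genes). In that setting 7 lay above both DMSO arrays (20.4%), the hnRNP and SNRP medians were -0.046 and -0.16, and the kinase median turned to 0.059. Of the 75 members tested, 51 were lower on average there, against 66 as deposited. Signs were followed only for the members named by the stated rule. Of these, LSM8, CLK2, CLK4 and SRPK2 turned to 0.045, 0.062, 0.056 and 0.084. With an intensity trend 80 genes passed. The ordinary test found 4 members lower at an unadjusted p under 0.05 (2.22% of all genes). With the lowest 20% of genes left out, or no filter, 2 members lay above both DMSO arrays (17.8% and 17.6% of all genes). With median centring 0 did (9.14% of all genes), the kinase median was -0.10, and SRSF5, HNRNPM and PRPF40B turned to -0.0049, -0.028 and -0.0066. With probe sets averaged the kinase median was -0.095 and SNRPG turned to -0.077. The cause of these shifts was not tested. The replicate numbers mark no shared batch in the labels. Deviations of same-numbered arrays correlated at 0.156 over genes. With the replicate number as a block, 432 genes (3.92% of all tested) and 8 other splicing genes passed. So did 2 members (2.67% of those tested), PRPF4 at -0.60 and SNRPA1 at -0.54.

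Leaving out 1 array at a time, 2 to 2636 genes passed, 0 to 24 members and 0 to 55 other splicing genes, the highest counts all without VS-5584 replicate 1. Members lower at an unadjusted p under 0.05 numbered 2 to 36 (3.94% to 32.7% of all genes), the 2 without DMSO replicate 2, a share of 2.67% beside 3.94% of all genes; higher were 0 to 1 (0.499% to 5.67%). Members below both or all DMSO arrays numbered 50 to 61 (34.6% to 60.1% of all genes), and above 2 to 8 (23.7% to 33.3%). Medians ran from -0.42 to -0.18 for LSM, -0.30 to -0.21 for SNRP, -0.38 to -0.067 for PRPF, -0.34 to -0.071 for U2 and 3' splice site, -0.26 to -0.059 for SR and -0.17 to -0.065 for hnRNP genes, and from -0.12 to -0.025 for kinases. Among the members named by the stated rule, those whose sign turned ran from -0.074 to 0.16 (SRSF5), -0.085 to 0.12 (HNRNPM), -0.016 to 0.50 (SNRPE), -0.067 to 0.23 (SNRPG), -0.024 to 0.21 (SF3A2), -0.060 to 0.14 (PRPF40B), -0.28 to 0.013 (CLK3), -0.18 to 0.065 (CLK4) and -0.012 to 0.18 (CLK1). The other members were not followed this way. SRSF6, SRSF11, HNRNPA0, HNRNPF, HNRNPD, SF3A1, SF3B2 and PRPF31, lower on average, were above the DMSO mean on VS-5584 replicate 1, at 0.00078 to 0.14. HNRNPK, HNRNPU and HNRNPA2B1, also lower on average, were above it on VS-5584 replicate 2, at 0.011 to 0.050. A left-out array leaves its group with 1 array, assumed to vary like the other group.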
